A study of Bos taurus and Mus musculus with 16 samples.

Results

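Chromatin remodellers and histone lysine enzymes were followed in mouse and bovine preimplantation embryos in which the transcription factor gene Tead4 (mouse) or TEAD4 (cattle) had been edited. The genes were chosen by symbol alone: the SMARC, CHD, ARID, KMT, KDM, HDAC and SETD families with EZH1, EZH2, EHMT1, EHMT2, EP400, SRCAP and INO80, leaving out Y-linked KDM5D. This gave 79 of the 16655 genes of the mouse table and 81 of the 14852 genes of the bovine table, and 76 symbols stood in both. After a filter on low values (a mean of at least 10 normalized reads), 74 members were tested in mouse and 65 in cattle.

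Remodellers use ATP to slide, evict or exchange nucleosomes, and SWI/SNF, ISWI, CHD and INO80 are their classical families. Methyltransferases and demethylases write and erase methyl groups on histone lysines, with outcomes that depend on the lysine, and deacetylases remove acetyl groups. In the early embryo these enzymes act as chromatin is rebuilt after fertilization and as the first lineages, trophectoderm and inner cell mass, form.

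Polyadenylated RNA was sequenced after a Smart-seq2 procedure, a method for small amounts of RNA. Every zygote, control or edited, was injected with mRNA of BE3, a Cas9 nickase fused to a cytidine deaminase that converts C to T. Edited zygotes also received a mix of single guide RNAs against Tead4 or TEAD4. No guide RNA went into the controls, and what a guide RNA does by itself cannot be told apart from the edit. Mouse morulae were collected on day 3.25 (2 control and 2 edited samples) and bovine blastocysts on day 7.0 (6 control and 6 edited samples). Strain or breed, embryos per sample and the share of edited cells are not known from the labels. Nothing states that the samples are separate cultures, so p-values cover the spread among these samples, and that spread may be technical. In bulk samples like these, fewer cells of a type and less RNA per cell cannot be told apart.

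Libraries held 3642907 to 6109425 assigned reads in mouse and 817329 to 2501592 in cattle. Tead4 stood at 458 and 519 normalized reads in control morulae and at 57.2 and 76.5 in edited ones. Bovine TEAD4 ranged from 61.2 to 124.9 in controls and from 22.6 to 65.6 in edited blastocysts, 42.6% of the control mean, and the groups overlapped (adjusted p = 0.235, limma). Of 8 trophectoderm markers, 6 fell in mouse, Tead4 itself among them, and the list summed to 6861 to 7965 in controls and 2062 to 2239.7 in edited samples. In cattle 0 of 6 tested ones passed (limma, 2 at an unadjusted p under 0.05, TEAD4 and TFAP2C). The inner cell mass markers summed to 3754 to 4235 in control and 3766 to 4591 in edited morulae, and 2 of 6 rose. Of 7 cumulus and granulosa markers 3 were in the mouse table, summing to 72.1 to 95 in controls and 129.7 to 165 in edited samples, mostly Hsd17b1 (80.5 and 63.2 against 134 and 115). Foxl2 lay between 0 and 5.72. Of 5 blood markers Cd68 and Cd14 were in the table, and Cd68 had 64.8 and 64.5 in controls and 129 and 83.6 in edited samples. In cattle the cumulus list summed to 6.85 to 29.8 in controls and 8.43 to 31.5 in edited samples, and the blood list to 2.63 to 22.5 and 4.24 to 22.2. The part of these shifts in the members' values was not tested.

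Per length, Hdac1, Smarca5, Hdac2 and Ezh2 had the highest control means of the members in mouse morulae. Values were divided by the kilobases of the longest transcript in GENCODE M21 to compare genes. Hdac1, a class I deacetylase of the NuRD, SIN3 and CoREST complexes, stood highest at 439 and 409.6 normalized reads per kb. Smarca5, the ISWI ATPase SNF2H, followed at 386 and 366, and Hdac2, the close paralogue of Hdac1, at 369 and 343, so that these neighbours overlapped. Of the 75-base windows of the longest transcript, 52.5% for Hdac1 and 28.4% for Smarca5 also occur in transcripts of other genes. Among these are Gm10093 for Hdac1 and Smarca5-ps for Smarca5, so the levels and ranks of both are uncertain. Other deacetylases lay far lower, with control means per kb of 23.5 for Hdac3, 11.3 for Hdac6 and 7.44 for Hdac5. Next came Ezh2, the catalytic subunit of Polycomb repressive complex 2, at 287 and 245, and Kmt5a, which monomethylates lysine 20 of histone H4, at 192 and 237. Among the demethylases Kdm5b, which erases methyl groups on lysine 4 of histone H3, led with 169 and 151 per kb. Kdm6b, an eraser on lysine 27, had 113 and 148, and its paralogue Kdm6a 26.2 and 29.2. Arid1a, the DNA-binding subunit of canonical SWI/SNF, stood at 134 and 139 per kb, and the ATPase Smarca4 at 85 and 116. In edited morulae Hdac1 had 879.5 and 814 per kb and Hdac2 196 and 331.

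**Figure D1:**
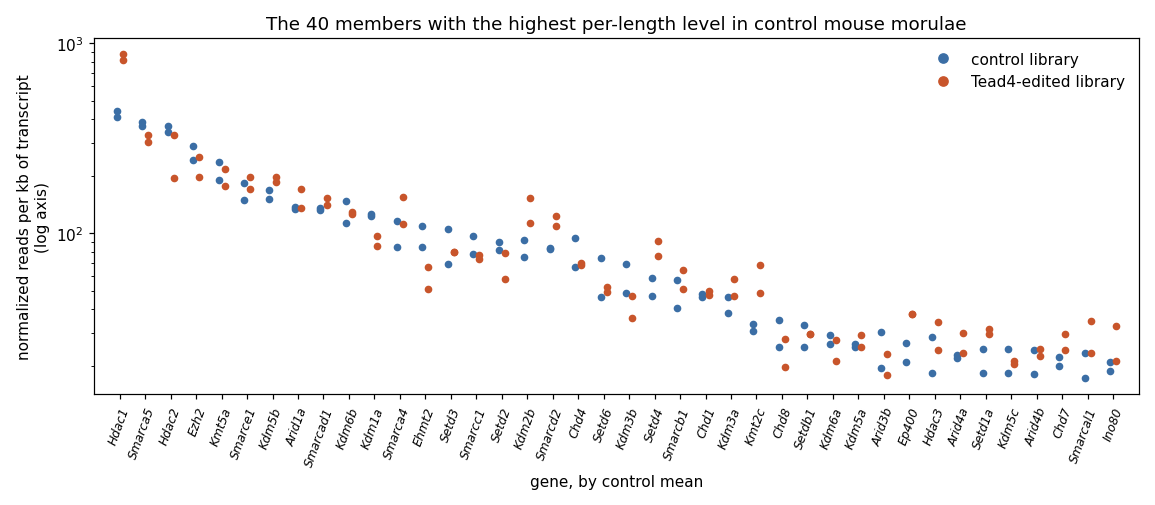
Normalized reads per kb of the longest transcript (log axis) in each mouse library for the 40 members with the highest control mean, ordered by that mean. Hdac1, Smarca5 and Hdac2 lead in the controls (blue), and Hdac1 stands apart in both edited libraries (orange). Windows shared with other genes leave the levels and ranks of Hdac1 and Smarca5 uncertain.

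In edited mouse morulae 9 members rose and 1 fell. Those that rose were Srcap and Ep400 of the INO80 family, the lysine 4 methyltransferases Kmt2c and Kmt2d, the SET domain gene Setd5, the demethylases Kdm2b and Kdm4c, the deacetylase Hdac1 and the ARID gene Arid3c. Ehmt2, a methyltransferase of lysine 9, fell. The 10 called members are 13.5% of the 74 tested, against 15.3% of all 11386 tested genes (limma, Benjamini-Hochberg adjusted p under 0.05), a share near the background. By direction, 6.92% of all tested genes were called higher and 8.38% lower. The members' median log2 fold change (edited minus control, of log2(value + 1)) was 0.17, against -0.0049 for all tested genes, and 47 of 74 members were above 0, against 49.7% of all. Both edited values lay above both controls for 32 members and below them for 12, against 28.6% and 29.2% of all tested genes.

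Single libraries moved these counts, both for members and for all tested genes. The members' median log2 fold change stayed above that of all tested genes in each such fit. With control library 1 left out, the members' median was 0.11, beside -0.015 for all tested genes. Dropping control library 2 gave 0.23, beside 0.015 for all. Dropping edited library 1 gave 0.14, beside 0.019, and dropping edited library 2 gave 0.18, beside -0.034. Srcap, Kmt2d and Hdac1 passed in all 4 fits that left out a library. Scaling every sample to the same total moved the median of all tested genes to 0.12 and that of the members to 0.29. The gap between both medians was 0.17, as in the first fit. With that scaling 10 members rose and 0 fell, and 62% of all calls were higher, against 45.2% as first scaled.

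**Figure D2:**
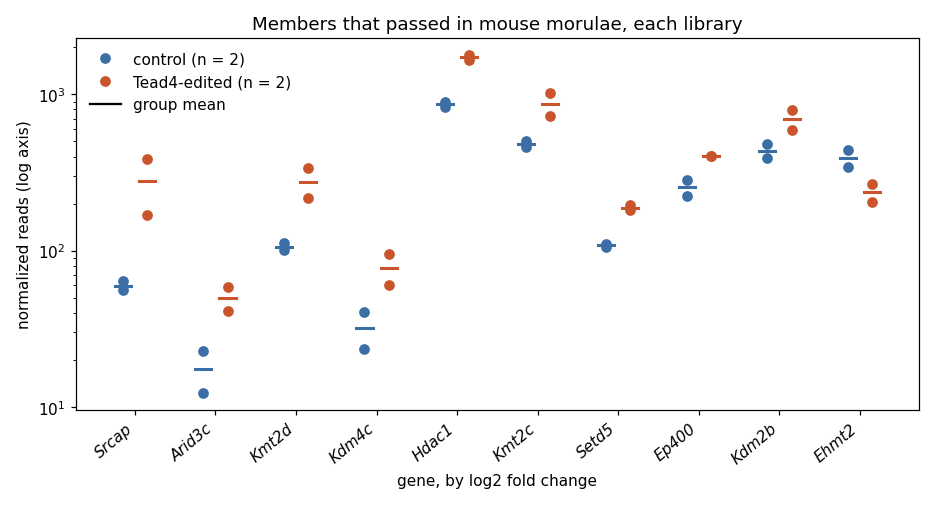
Normalized reads (log axis) of the 10 members that passed in mouse, in the 2 control (blue) and 2 edited (orange) libraries, with the group means as bars. The groups do not overlap for any of the 10, which were picked by their adjusted p (limma). Of all tested genes, 28.6% had both edited values above both controls and 29.2% had both below. The edited libraries of Srcap lie farthest apart on this axis, at 388 and 169.

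INO80 family ATPases exchange or reposition nucleosomes, and SRCAP and EP400 are best known for depositing the histone variant H2A.Z. Srcap (chromosome 7, 127511983 to 127561219, plus strand, GRCm38) had 63.7 and 55.7 normalized reads in control and 388 and 169 in edited morulae. Both edited values lay well above both controls, though they differed from each other by more than the controls did. The log2 fold change was 2.09 ± 0.31 (SE, n = 2 per group, limma adjusted p = 5.56e-05), and 1.49 to 2.68 when a library was left out. The gene model Gm42715 overlaps Srcap on the same strand, and 89.9% of the 75-base windows of the longest Srcap transcript also occur in transcripts of other genes, so its value is uncertain. Ep400 (chromosome 5, 110664373 to 110770717, minus strand) had 284 and 225 in controls and 400.4 and 402 in edited samples, a log2 fold change of 0.66 ± 0.21 (adjusted p = 0.0344). That call did not stand without control library 1 or without control library 2 (adjusted p up to 0.368), nor with no filter on low values. The founding member Ino80 was not called, at 134 and 120.2 in control and 206 and 135 in edited samples (0.39 ± 0.27, adjusted p = 0.358).

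Of 6 tested methyltransferases of histone H3 lysine 4, 2 rose, beside 6.92% of all tested genes called higher. KMT2C and KMT2D place the monomethyl mark typical of enhancers, in large complexes that also hold the demethylase KDM6A. Kmt2d (chromosome 15, 98831669 to 98871204, minus strand) stood at 101 and 111 in control and 336 and 215 in edited samples, with all edited values above all controls. The edited mean was 260.1% of the control mean and the log2 fold change 1.34 ± 0.26 (limma adjusted p = 0.000861). Kmt2c (chromosome 5, 25271798 to 25498783, minus strand) showed 458 and 499.6 against 1018 and 724, a difference of 0.84 ± 0.20 (adjusted p = 0.00418) that missed the threshold when either control library was left out (adjusted p up to 0.0998). Kdm6a was not called, at 155 and 173 in controls and 164 and 126 in edited samples. Neither were the trithorax paralogues Kmt2a (-0.14 ± 0.41) and Kmt2b (121 and 129 against 86.8 and 117, -0.31 ± 0.28), nor Setd1a (0.52 ± 0.25) and Setd1b (0.17 ± 0.29) of the COMPASS complexes. Setd1a shares 53.8% of its windows with the overlapping gene model Gm49388, so its value is uncertain. Setd7, another enzyme of this lysine, was below the filter, at 5.59 to 9.92.

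For histone H3 lysine 9, the partners of the G9a and GLP heterodimer lay on opposite sides of 0. Ehmt2 (G9a; chromosome 17, 34898469 to 34914052, plus strand) had 342 and 439 in control and 267 and 205 in edited samples, without overlap. The edited mean was 60.4% of that of the controls and the log2 fold change -0.73 ± 0.22 (limma adjusted p = 0.0267). Of the 4 fits that left out a library, 1 kept this call (adjusted p up to 0.354), and with equal totals it was gone (0.0685). Ehmt1 (GLP) had 116 and 116 in controls and 197 and 129.7 in edited samples, and was not called (0.46 ± 0.27, adjusted p = 0.274), but passed without edited library 2 (0.76). Setdb1, a lysine 9 methyltransferase that silences retroelements, stood at 142 and 186 in control and 168 and 168 in edited samples (0.05 ± 0.25, interval -0.47 to 0.56).

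Ezh2 was not called, at 801 and 683 in control and 706 and 551 in edited samples (-0.25 ± 0.19), and its paralogue Ezh1 gave 0.52 ± 0.33. Setd2, which trimethylates lysine 36, had 682 and 750.1 against 659 and 479 (-0.35 ± 0.20, adjusted p = 0.246) and passed only without edited library 1 (-0.58). Kmt5a had 525 and 650.1 against 602 and 489.8 (-0.11 ± 0.20). Setd5 (chromosome 6, 113077365 to 113153435, plus strand), a SET domain protein found with HDAC3 complexes, had 111 and 105 in controls and 195 and 181 in edited samples. Replicates lay close together, and the log2 fold change was 0.80 ± 0.26 (limma adjusted p = 0.0342). It missed the threshold without control library 1, control library 2 or edited library 1 (adjusted p up to 0.216), with DESeq2 (0.0605) and with no filter on low values, although its value stayed between 0.75 and 0.85 when a library was left out. Setd4 (153 and 123 against 238 and 199) missed it as well (adjusted p = 0.0688), but passed with equal totals and without edited library 2.

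Of 16 tested demethylases, 2 rose and 0 fell (limma, 4 at an unadjusted p under 0.05). Among all tested genes 15.3% were called, and 28.6% had an unadjusted p under 0.05. KDM2B binds unmethylated CpG islands and brings a variant Polycomb repressive complex 1 there. Kdm2b (chromosome 5, 122870665 to 122989823, minus strand) had 479 and 391 in controls and 799 and 588 in edited samples, a log2 fold change of 0.66 ± 0.20 (adjusted p = 0.0257). It missed the threshold without control library 1, control library 2 or edited library 1 (adjusted p up to 0.318). Of the windows of its longest transcript 22.4% occur in other genes, among them Rnf34, which overlaps it on the opposite strand. Kdm4c (chromosome 4, 74242497 to 74405860, plus strand), an eraser of trimethylated lysine 9, had 23.5 and 40.5 against 95.3 and 60.2 (1.27 ± 0.39, adjusted p = 0.0267). An annotated antisense gene overlaps it, and its call was gone with DESeq2 (0.0739), without control library 1 and without edited library 1 (adjusted p up to 0.291). Whether reads were counted by strand is not stated in the labels, and values of overlapping genes are uncertain.

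The other 14 demethylases were not called with all 4 libraries, and Kdm3b passed without edited library 1. Kdm5b had 1469 and 1318 in control and 1733 and 1622 in edited samples (0.27 ± 0.17). Kdm6b had 753 and 985 against 846 and 860.4 (-0.01 ± 0.18), with a 95% interval of the difference from -0.39 to 0.36. Kdm1a (LSD1), the flavin-dependent eraser of lysine 4 methylation in CoREST, stood at 373 and 382 in control and 261 and 293 in edited samples (-0.45 ± 0.21, adjusted p = 0.155), without overlap. Kdm3b, an eraser on lysine 9, was also lower in both edited samples, 299 and 229.6 against 308 and 438 (-0.49 ± 0.23, adjusted p = 0.156). Kdm4a, with 6.7 and 6.32 in controls and 28.6 and 9.92 in edited samples (1.26 ± 0.71), rested on few reads in the controls, where 3 reads are worth up to 3.79 normalized reads.

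Hdac1 rose, as the only one of 7 tested deacetylases that passed in mouse, where 15.3% of all tested genes passed. Hdac1 (chromosome 4, 129516104 to 129542713, minus strand) had 894 and 835 normalized reads in control and 1792 and 1659.9 in edited morulae. The replicates lay close together and the groups far apart, with a log2 fold change of 1.0 ± 0.17 (limma adjusted p = 0.000219). Leaving out any library kept the value between 0.94 and 1.05 and the adjusted p at or below 0.0201. Of the windows of its longest transcript 52.5% occur in transcripts of other genes, most of them in Gm10093, so reads could be shared or lost between copies.

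Hdac2, which can stand in for Hdac1 in many complexes, had 1200.1 and 1114 in control and 638 and 1076 in edited samples and was not called (-0.48 ± 0.20, adjusted p = 0.109). Edited library 1 was the low one: its removal left a difference of -0.10, and removal of edited library 2 left -0.86, which passed. Together the pair summed to 1949 to 2094 in controls and 2430.3 to 2736 in edited samples. Hdac1 made up 42.7% and 42.8% of the pair's reads in controls and 73.8% and 60.7% in edited samples, a description chosen after the values were seen. These shares are not divided by transcript length (longest 2038 nucleotides for Hdac1, 3250 for Hdac2). Per kb, Hdac1 lay above Hdac2 in both controls as well. The 52.5% of Hdac1 windows found in other genes make the shares uncertain. Hdac3, the catalytic subunit of NCoR complexes, had 65.9 and 102 against 87.7 and 123 (0.34 ± 0.31), and the tubulin deacetylase Hdac6 36.9 and 77.2 against 49.6 and 58.8 (0.02 ± 0.38). Hdac5, a class IIa deacetylase, was lower in both edited samples, 21 and 13.5 against 42.5 and 37.9 (-1.21 ± 0.47, adjusted p = 0.0854). Hdac7, Hdac8 and Hdac9 were below the filter, at 0 to 10.1.

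With all 4 mouse libraries no SWI/SNF subunit was called: 0 of 11 by limma (1 at an unadjusted p under 0.05, Smarcd2), and 0 by edgeR and DESeq2. Of all tested genes limma called 15.3%, and 28.6% had an unadjusted p under 0.05. Smarca4 (BRG1), the ATPase needed at genome activation, had 542 and 739.9 in control and 987 and 718 in edited samples (0.41 ± 0.20, adjusted p = 0.176), and it passed without edited library 2 (0.64). Of the core subunits, Smarcc1 had 450.3 and 558 against 421 and 445 (-0.21 ± 0.20) and Smarcb1 303 and 421 against 378 and 478 (0.25 ± 0.22). Arid1a stood at 1097 and 1135 against 1399.7 and 1117 (0.16 ± 0.17), with an interval from -0.19 to 0.52. Smarcd2 (0.48 ± 0.22), Smarcc2 (0.84 ± 0.43) and Smarca2 (0.71 ± 0.35), the alternative ATPase BRM, were higher in both edited libraries than in both controls, like Arid1b (0.41 ± 0.28). Of all tested genes 28.6% had both edited values above both controls. The list had 9 of 11 values above 0 and a median of 0.25, against 49.7% and -0.0049 for all tested genes.

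Among the ISWI and other SMARC ATPases, Smarca5 had 2361 and 2239 in control and 2005 and 1857 in edited samples (-0.25 ± 0.16). Smarcad1 gave 0.14 ± 0.18 and Smarcal1, a fork-remodelling enzyme, 0.50 ± 0.30. Of 9 CHD genes 0 were called (limma, 1 at an unadjusted p under 0.05, and 0 by edgeR and DESeq2). Limma called 15.3% of all tested genes, with 28.6% at an unadjusted p under 0.05. Chd4, the NuRD ATPase, stood at 448 and 635 against 469 and 456 (-0.21 ± 0.20), and Chd1, known for keeping the chromatin of pluripotent cells open, at 368 and 379 against 378 and 395 (0.05 ± 0.20). Chd9 had the lowest fold change of the family, at 38 and 37.9 in controls and 16.2 and 13.5 in edited samples (-1.3 ± 0.49, adjusted p = 0.0688), and Chd5 was below the filter at 4.47 to 18.1.

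Of 7 other ARID genes, which bind DNA through an AT-rich interaction domain, Arid3c rose, beside 6.92% of all tested genes called higher. Arid3c (chromosome 4, 41723836 to 41731142, minus strand) had 12.3 and 22.8 in controls and 41 and 58.8 in edited samples (1.5 ± 0.47, limma adjusted p = 0.0294). It overlaps Il11ra1 on the opposite strand, and its call was gone with DESeq2 (0.0869), without control library 1 and without edited library 2 (adjusted p up to 0.264). The other 6 ranged from -0.25 ± 0.31 (Arid3b) to 1.12 ± 0.63 (Arid5a).

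Members have long transcripts, and in mouse the shortest of 4 length classes had a lower median change than the other 3, which lay close together. The median longest transcript was 5892.5 nucleotides for tested members and 3271 for all tested genes with a length, and 49 of the 74 members fell in the longest of 4 length classes (4724 nucleotides and more). In the shortest class (up to 2077 nucleotides) genes had a median log2 fold change of -0.24, and it was 0.056, 0.076 and 0.081 in the other 3, in order of length. In the longest class the members' median was 0.16, with 31 of 49 above 0, and 6 members rose and 0 fell, beside 5.73% of all its genes called higher and 4.12% lower. Hdac1 and Arid3c rose in the shortest class, which held 3 members. The part of transcript length in the members' values was not tested.

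**Figure D3:**
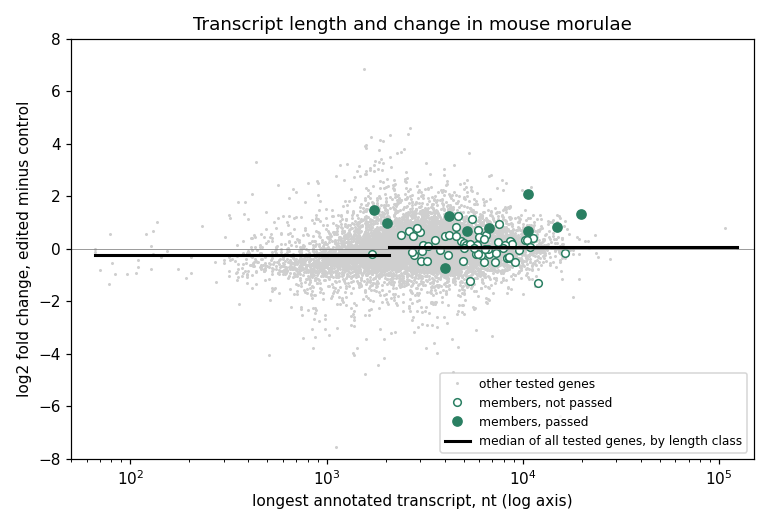
Log2 fold change of each tested mouse gene against the length of its longest transcript (log axis), with members in green (filled where they passed) and the median of all tested genes in each of the 4 length classes as black lines. The shortest class lies lowest, at -0.24, and 49 of 74 members lie in the longest class.

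Partner subunits and other histone enzymes were counted from lists outside the symbol rule. Of 59 tested partner subunits, 2 rose and 2 fell (6.78%, against 15.3% of all tested genes, limma). Mta2, a NuRD subunit, had 266 and 268 in controls and 783 and 580.5 in edited samples (1.33 ± 0.21), and Trrap, the scaffold of the TIP60 complex that holds EP400, 169 and 220.1 against 342 and 325 (0.79 ± 0.23). Jarid2, an accessory subunit of Polycomb repressive complex 2, had 2462 and 2621 against 1499.8 and 1375 (-0.82 ± 0.16), and Dpy30, shared by the lysine 4 methyltransferase complexes, 1192 and 1122 against 719 and 779.6 (-0.63 ± 0.18). Among 37 tested other writers and erasers 3 rose and 0 fell (8.11%). They were the arginine methyltransferases Prmt1 (41.3 and 62 against 363 and 98.5) and Carm1 (49.2 and 58.2 against 146 and 133), and Smyd5 (687 and 659 against 1111 and 1104). In cattle 0 of 55 partner subunits and 0 of 32 other writers and erasers were called by limma, with 5 of each list at an unadjusted p under 0.05. Among all tested bovine genes 0.0113% were called, and 5.88% had an unadjusted p under 0.05.

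Bovine control library 6 held the highest control value for 37 of the 65 tested members (56.9%), and for 22.1% of all tested genes. Control library 1 held the lowest control value for 24 members, which was not counted over all genes. The median member level, as log2(value + 1), was 5.95 in control library 6. It was 5.93, 5.89 and 5.29 in control libraries 2, 3 and 1. No member was called in bovine blastocysts. Limma called 0 of 65, at a background of 1 of 8884 tested genes (0.0113%), and 3 members had an unadjusted p under 0.05, against 5.88% of all genes. EdgeR and DESeq2 also called 0 members. For 0 members did the groups not overlap, against 0.09% of all genes with all edited values above the controls and 0.158% with all below. The members' median log2 fold change was -0.16, against 0.011 for all tested genes, with 20 of 65 above 0, against 51.5% of all. Leaving out a library moved that median both ways. It became -0.07 without control library 6, -0.09 without control library 3 and -0.10 without edited library 3. Without control library 1 it became -0.22, and without control library 5 or edited library 5 it became -0.18. Equal totals moved the median of all genes to 0.13 and that of the members to -0.04, with 28 of 65 above 0.

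HDAC1 had the smallest unadjusted p of the bovine members. It ranged from 343 to 601 normalized reads in controls (median 449) and from 549 to 758 in edited blastocysts (median 653). The highest control lay within the edited range, so the groups overlapped. The log2 fold change was 0.49 ± 0.16 (SE, n = 6 per group, limma unadjusted p = 0.00685, adjusted p = 0.792), between 0.41 and 0.58 whichever library was left out. HDAC2 ranged from 92.9 to 225 in controls and 154 to 296 in edited samples (0.20 ± 0.22). HDAC1 was 63.7% to 78.7% of the pair's reads in controls (median 73.2%) and 71.9% to 80.1% in edited samples (median 77.9%), with overlap. These shares too are not divided by transcript length. HDAC3 (27.7 to 71.9 against 48.2 to 79.2, 0.39 ± 0.23) and HDAC6 (49.9 to 95.4 against 50.02 to 113, 0.35 ± 0.22) were not called. HDAC8, below the filter in mouse, ranged from 101 to 235 in bovine controls and 126 to 206 in edited samples (-0.10 ± 0.21).

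The other 2 members at an unadjusted p under 0.05 had lower medians in edited blastocysts. SMARCC1 (BAF155), a scaffold of SWI/SNF, ranged from 77 to 187 in controls (median 103) and 65.6 to 100.3 in edited samples (median 74.9). Its log2 fold change was -0.48 ± 0.22 (limma unadjusted p = 0.0361, adjusted p = 0.792), and the groups overlapped. KDM2A, a CpG island demethylase related to KDM2B, ranged from 95.9 to 138 (median 109) and from 49.5 to 101 (median 97.7), a difference of -0.44 ± 0.20 (unadjusted p = 0.0428, adjusted p = 0.792).

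Of 9 tested bovine SWI/SNF subunits 7 were below 0, while 51.5% of all tested bovine genes were above 0. Such signs depend on the scaling: with equal totals 28 of the 65 members were above 0, against 20 as first scaled. SMARCA4 ranged from 72.8 to 123 in controls and 67.2 to 135 in edited samples (0.01 ± 0.20), ARID1A from 118 to 196 and 100.4 to 167 (-0.12 ± 0.18), and SMARCB1 from 29.2 to 65.2 and 31.8 to 71.2 (-0.11 ± 0.25). SMARCA5 ranged from 354 to 556 against 355 to 525 (-0.08 ± 0.16, interval -0.41 to 0.25). CHD4 (69.2 to 154 against 77.8 to 140.1) gave 0.05 ± 0.21 and CHD1 (88.1 to 120.5 against 68.6 to 112) -0.17 ± 0.17. INO80 (18.4 to 52 against 34 to 64.8, 0.33 ± 0.25) and EP400 (25 to 67.4 against 30.4 to 46.3, -0.15 ± 0.24) lay on opposite sides of 0, and SRCAP was not analysed in cattle.

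Bovine methyltransferases were mostly below 0, with 5 of 7 for lysine 4 and 3 of 4 for lysine 9, while 51.5% of all tested bovine genes were above 0. KMT2C ranged from 192 to 335 in controls and 162 to 273 in edited samples (-0.23 ± 0.19), KMT2D from 38.8 to 146 and 42.4 to 107 (-0.37 ± 0.29), and KMT2B from 8.75 to 29.8 and 15.6 to 28.7 (0.29 ± 0.31). EHMT2 (27.7 to 60.8 against 25.1 to 51.9, -0.31 ± 0.24) and EHMT1 (-0.44 ± 0.22) lay on the same side of 0 here. EZH2 had 32.9 to 65.2 against 35.4 to 62.5 (-0.14 ± 0.22), SETD2 58.6 to 116 against 70.1 to 92 (-0.16 ± 0.19) and SETDB1 15.4 to 36.5 against 14.1 to 37.1 (0.14 ± 0.28). SETD6, a lysine methyltransferase that acts on RELA, had the highest log2 fold change of the tested bovine members (0.62 ± 0.30) at low levels, from 7.69 to 24.8 in controls and 17 to 31.5 in edited samples.

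Of the 13 tested bovine demethylases 8 were below 0, while 51.5% of all tested bovine genes were above 0. KDM5B ranged from 104 to 171 in controls and 78.9 to 132 in edited samples (-0.26 ± 0.18), KDM6A from 45.6 to 84.6 and 31.7 to 86.3 (-0.30 ± 0.26), and KDM1A from 129 to 198 and 128 to 205 (0.03 ± 0.17). KDM4C had 12.2 to 36.9 against 14.9 to 32.5 (0.06 ± 0.29), and KDM6B 6.16 to 66.3 against 5.66 to 25.8 (0.15 ± 0.47), the highest KDM6B value being that of control library 6. Below the bovine filter lay 16 members, at means of 1.6 to 9.88 normalized reads. They were SMARCA2, SMARCD3, CHD3, CHD5, ARID5A, ARID5B, EZH1, KMT5C, SETD9, KDM1B, KDM4B, KDM8, HDAC4, HDAC7, HDAC10 and HDAC11. In these libraries 3 reads are worth 1.71 to 5.56 normalized reads, and differences of these genes were not tested.

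**Figure D4:**
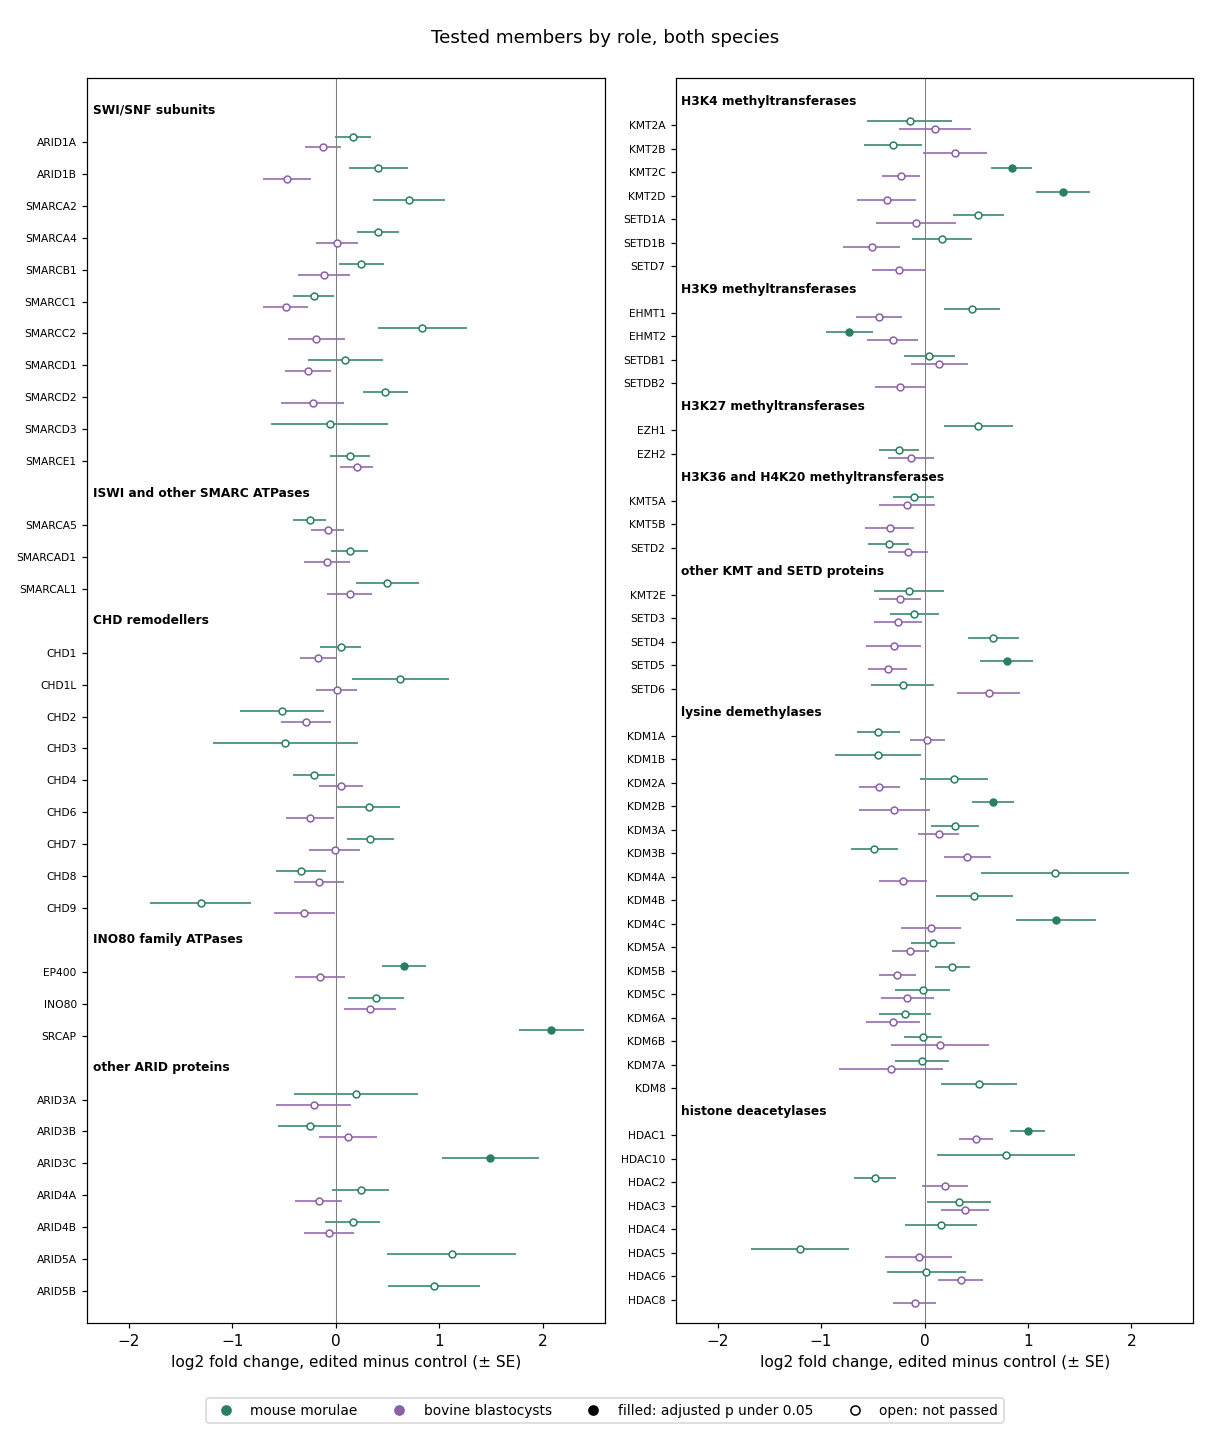
Log2 fold change (edited minus control) with its standard error for every tested member, by role, in mouse morulae (green) and bovine blastocysts (purple), with filled points where the adjusted p was under 0.05. The 10 filled points are mouse genes, and 45 of the 65 bovine points lie below 0, while 51.5% of all tested bovine genes lie above 0.

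Mouse and bovine effects were compared for the 61 members tested in both tables. The difference of the log2 fold changes (mouse minus bovine) passed for KMT2D, KMT2C and SETD5, 3 of 61, against 6.07% of all 7073 shared symbols, a share near the background. KMT2D differed by 1.7 ± 0.39 (SE, adjusted p = 0.00477), being above 0 in mouse and below 0 in cattle. KMT2C differed by 1.07 ± 0.27 (adjusted p = 0.0125). SETD5 differed by 1.15 ± 0.32 (adjusted p = 0.023), and in cattle it ranged from 61.8 to 91.8 in controls and 43.1 to 72.3 in edited samples (-0.36 ± 0.19). The HDAC1 difference of 0.50 ± 0.24 did not pass (adjusted p = 0.201), nor did those of EHMT1 (0.90 ± 0.35, 0.116) and KDM2B (0.95 ± 0.40, 0.149). Over these 61 members 26 were above 0 in mouse and below 0 in cattle, and 9 the other way round. Another 11 were above 0 in both and 15 below 0 in both. Such signs depend on the scaling, and matching counts over all shared symbols were not made. The median difference was 0.22 for the members and -0.057 for all 7073 shared symbols. Species, stage, sequencing depth and how far the target's own reads fell differ together here and cannot be told apart. Tead4 stood at 13.7% of its control mean in edited morulae, while for bovine TEAD4 the control and edited groups overlapped.

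**Figure D5:**
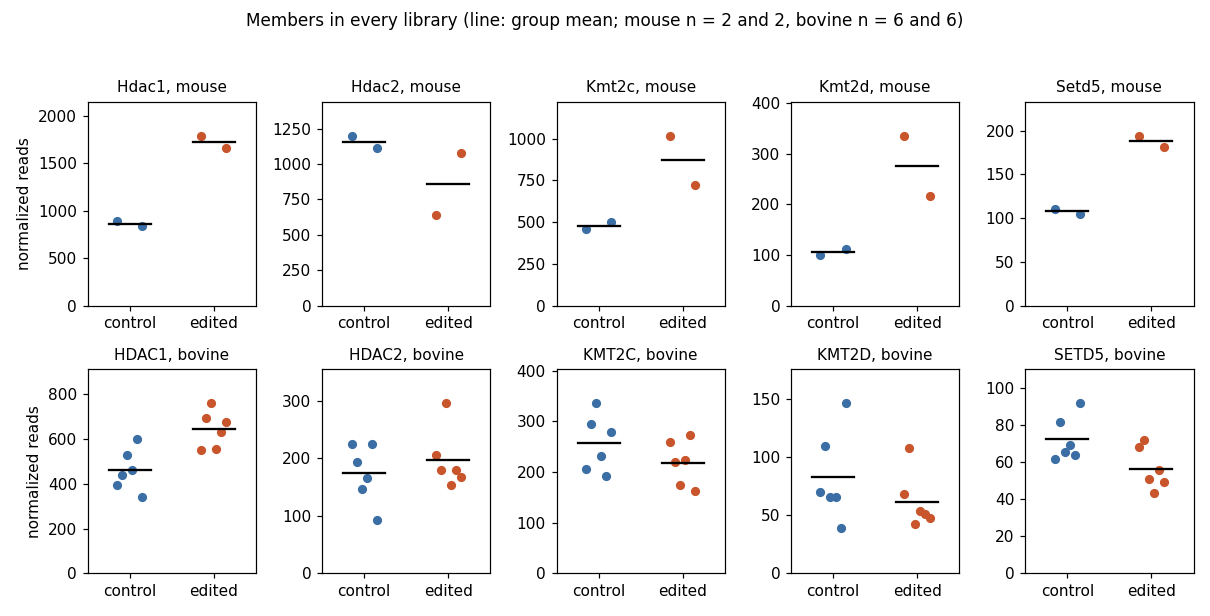
Normalized reads of HDAC1, HDAC2, KMT2C, KMT2D and SETD5 in every library of mouse (top) and cattle (bottom), controls in blue and edited samples in orange, with group means as lines and axes that start at 0. The mean of HDAC1 is higher in edited samples of both species, while those of KMT2C, KMT2D and SETD5 are higher in edited mouse samples and lower in edited bovine ones.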

How the data were processed

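Smart-seq2 libraries are named in the labels' protocols. Trimmomatic, HISAT2, featureCounts and DESeq2, with the builds mm10 and ARS-UCD1.2, are named in the submitters' processing notes. Annotation, strand setting and multi-mapped reads: not given in the sources used here. The deposited signal values behave as gene counts divided by 1 size factor in each library. All of them were whole multiples of 1 read's value (tolerance 0.05 reads), which recovers whole reads. In bovine edited library 4 that value lies near 1, so there recovered reads cannot be told apart from rounded values by this check, and none are claimed, although the count tests used them. The authors' deposited table also holds log2 fold changes, p-values and a test statistic (a score, not used). By the adjusted p of the authors' deposited table (DESeq2), under 0.05 were 6 of 73 mouse members with a value (5 higher, 1 lower) and 0 of 81 bovine ones. The 6 were Ehmt2, Hdac1, Kdm2b, Kmt2c, Kmt2d and Srcap. Called by limma but not under 0.05 there were Ep400 (0.0529), Setd5 (0.0665), Kdm4c (0.080) and Arid3c (0.0923). Of all genes with a value, 1319 of 11165 in mouse (564 higher, 755 lower) and 3 of 14840 in cattle were under 0.05.

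Each species was fitted alone with limma 3.58.1 (R 4.3.3, trend, two-sided) on log2(value + 1), for genes with a mean of at least 10, and adjusted over all tested genes by Benjamini-Hochberg at 0.05. Folds on this scale understate the change of low genes. The fit was also run on simulated counts whose spread was taken from these libraries, and no conclusion is drawn from that run here. For the species difference, the root of both summed squared standard errors was used, with Satterthwaite's approximation. Alternatives were pseudocounts of 0.5 and 5, no filter or a mean of 50, equal totals, robust limma, edgeR 4.0.16 and DESeq2 1.42.0 on whole reads, a replicate block, and leaving out each library. Mouse symbols (members 79 of 79) took positions and lengths from GENCODE M21 (GRCm38). Members and lists were chosen with earlier results of these data known, and SETD9 was added to its list after the bovine table was read. Members that passed, a fixed set of central members, and up to 4 per role with the largest change at a mean of at least 50 were to be named. Others named were chosen after their values were seen. Promoter sequence was not analysed here. Limits from 3 reads cover counting error only.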

Additional observations from a re-analysis of the deposited data

Results flagged for a closer look

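Within the bovine groups of 6, 11 of 130 member groups held 1 library whose gap to its nearest neighbour was large against the group's range (Dixon's 95% value), and chance flags about 1 in 20 groups. Control library 6 was the high one in 4 of them: CHD7 at 58.6 normalized reads, SMARCD2 at 60.8, KDM5B at 171 and KDM6B at 66.3. Edited library 2 was high for SMARCA4 at 135, KDM3B at 77.8 and KMT2E at 76, and low for ARID3B at 13. SETD3 was high in control library 1 at 99.9, CHD2 in edited library 4 at 56.2 and HDAC2 in edited library 3 at 296. The test of the difference between mouse and bovine effects passed for KMT2D (1.7), KMT2C (1.07) and SETD5 (1.15), on the log2 scale.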

How the results depend on the processing

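Called mouse members stayed at 8 to 10 under the pseudocounts, filters, equal totals, robust limma and edgeR, and numbered 7 with DESeq2. All called mouse genes moved as well. They were 1501 of 16655 with no filter, 1548 of 7432 at a mean of at least 50 and 1354 of 11386 with DESeq2. Tested members numbered 79, 59 and 74 there. Pseudocounts, equal totals, robust limma and edgeR called 1670 to 1796 of 11386 genes. With equal totals 0 members fell and the mouse members' median was 0.29. When a library was left out, called mouse members ranged from 3 to 12, those higher from 3 to 11, those lower from 0 to 3, and all called mouse genes from 580 to 2588. In cattle DESeq2 called 5 of all genes. With the replicate block, by a number that the labels share across groups, 10 mouse members were called (9 higher, 1 lower) and 0 bovine ones. Among all tested genes that fit called 1816 of 11386 in mouse and 1 of 8884 in cattle. Same-numbered samples correlated by 0.11 in mouse, with 2 pairs, and by -0.19 to 0.34 in cattle, where 1 of 6 samples correlated best with its own number. The samples were therefore not treated as pairs. None of the 10 called mouse members turned sign in any alternative run. With equal totals the sign turned for Kmt5a 0.0195, Smarcd3 0.0605, Kdm6b 0.11, Kdm5c 0.11, Kdm7a 0.0985, Setd3 0.0275, CHD7 0.11, SETD1A 0.0327, SMARCA5 0.0452, SMARCAD1 0.0343, SMARCB1 0.00843, HDAC8 0.0262, HDAC5 0.0614, ARID4B 0.0567. With edgeR the sign turned for Hdac6 -0.0399, KMT2A -0.0334, SMARCA4 -0.00201, KDM6B -0.16. With DESeq2 the sign turned for Hdac6 -0.0538, KMT2A -0.0313, SMARCA4 -0.00787, KDM6B -0.18. Leaving out a library turned the sign of 21 mouse members, which ranged as follows: Chd4 -0.46 to 0.0451, Kmt5a -0.26 to 0.0475, Setd1b -0.11 to 0.45, Setdb1 -0.15 to 0.24, Smarce1 -0.0022 to 0.28, Smarcd1 -0.072 to 0.25, Smarcd3 -0.19 to 0.075, Hdac4 -0.0196 to 0.34, Hdac6 -0.51 to 0.54, Hdac10 -0.0709 to 1.65, Kdm6b -0.21 to 0.18, Kdm5a -0.0211 to 0.18, Kdm5c -0.23 to 0.19, Kdm7a -0.18 to 0.13, Kdm2a -0.10 to 0.68, Kdm1b -1.0 to 0.11, Arid4b -0.0488 to 0.38, Arid3b -0.56 to 0.0623, Setd3 -0.40 to 0.21, Setd6 -0.54 to 0.12, Kmt2e -0.42 to 0.12. It also turned that of 18 bovine members: CHD4 -0.0726 to 0.16, CHD1L -0.075 to 0.0911, CHD7 -0.12 to 0.19, KMT5A -0.31 to 0.0526, KMT2A -0.24 to 0.27, SETD1A -0.37 to 0.19, SMARCAD1 -0.23 to 0.0205, SMARCA4 -0.10 to 0.10, SMARCD2 -0.34 to 0.014, HDAC8 -0.23 to 0.0126, HDAC5 -0.21 to 0.14, KDM1A -0.0425 to 0.10, KDM4C -0.0721 to 0.23, KDM6B -0.0781 to 0.57, KDM7A -0.56 to 0.0529, ARID4B -0.15 to 0.0896, ARID3B -0.000347 to 0.28, ARID3A -0.42 to 0.00152. None of these was called as first fitted, and the causes were not tested. In cattle 817329 to 2501592 reads per library leave 16 members under the filter.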
